A study of Mus musculus with 2 samples.

Results

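The genes described here are 10 genes best known from striated muscle: Acta1, Actc1, Tnnt2, Tnnc2, Tnni1, Sh3bgr, Asb2, Fbxl22, Myh3 and Ttn. They were measured in mouse ureters at E14.5 as 16 probes of 39396 with usable spots on both arrays, and stand for 10 of 32081 genes or accessions. Probes were assigned by the RefSeq accession printed in the scanner files. The genes were chosen by their measured log2 ratios between the groups, together with what is known of them, so these values are a description and carry no test. In the ureters labelled knockout, 6 of them (Acta1, Actc1, Tnnt2, Fbxl22, Asb2 and Sh3bgr) had mean log2 ratios between -3.02 and -1.26. The other 4 (Tnnc2, Tnni1, Myh3 and Ttn) lay between -0.34 and -0.038.

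The ureters labelled knockout came from NMRI embryos of genotype Tbx2(fl/fl) and Tbx3(fl/fl) with Tbx18(cre/+). Cre recombinase made from the Tbx18 locus recombines the floxed alleles of these T-box repressor genes in cells with Tbx18 expression, chiefly the mesenchyme around the ureter. Controls were NMRI embryos of genotype Tbx2(fl/?) and Tbx3(fl/?) with Tbx18(+/+). They carried floxed alleles but no Cre, the question mark stands for an allele that the labels do not specify, and the Cre allele itself cannot be told apart from the deletion. The data were 2 two-colour arrays, with a knockout and a control RNA of females on the first and of males on the second, the dyes exchanged between them, so an effect of sex and an effect of dye cannot be told apart. The number of embryos per RNA is not given here. Ratios are log2 of labelled knockout over control, and errors are SDs over the 2 pairs.

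In striated muscle, thin filaments of skeletal or cardiac alpha-actin carry the troponin complex, in which troponin C binds calcium, troponin I inhibits and troponin T ties the complex to tropomyosin. Thick filaments are built from myosin heavy chains such as Myh3, and titin (Ttn) spans from the Z-disc to the M-band. Smooth muscle has no sarcomeres, yet developing smooth muscle is known to transcribe skeletal and cardiac actin and cardiac troponin T. Many contractile genes of both muscle types are bound by serum response factor (SRF) at a sequence called the CArG box, with myocardin (Myocd) as a coactivator in cardiac and smooth muscle.

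Over each array 157716 spots were read at 4 spots a probe. Of these, 64.3% to 71.6% per channel were well above background and 0 were saturated. With so few arrays, their number limits the precision. Tbx3 had a log2 ratio of -1.09 ± 0.10 (SD, n = 2 pairs) and Tbx2 of 0.86 ± 0.12, so the Tbx2 transcript goes against its label and the group is called labelled knockout throughout. The position of either probe relative to the floxed exons is not known. Of 6 urothelial markers 0 passed the limma test at an adjusted p under 0.05 (3 at an unadjusted p under 0.05), and the median ratio was -0.041. The median was 0.62 for 5 neural and glial markers, 0.23 for 3 endothelial, 0.29 for 3 immune and 0.34 for 3 erythroid markers. Of these, 3 neural and 1 erythroid marker rose in limma (Fabp7, Prph, Dbh and Hbb-b1), and 0 of the 3 endothelial and 0 of the 3 immune markers passed (2 and 3 at an unadjusted p under 0.05). The part of these shifts in the results below was not tested. In whole ureters, fewer cells of a type and less RNA per cell cannot be told apart.

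The 250 bases before the gene start were searched for muscle-related motifs because 6 members shared low ratios. The RefSeq promoter table (GRCm38.p6) held 12 such windows for 9 of the 10 members, and 32851 windows in all. Both strands were searched for each motif, and motifs may overlap. The CArG box was searched as CCWWWWWWGG, with W for A or T, and no mismatch was allowed. Near matches were not counted, such as CCCTATATGG in Actc1, GCTTATATGG in Tnnt2 and CCCAAATAGG in Ttn. The windows with an exact CArG box are printed here, with the first of Tnnt2, which had none. In capitals are CArG boxes, TATA boxes and MCAT elements.
Acta1, chr8:123894776-123895025, minus strand: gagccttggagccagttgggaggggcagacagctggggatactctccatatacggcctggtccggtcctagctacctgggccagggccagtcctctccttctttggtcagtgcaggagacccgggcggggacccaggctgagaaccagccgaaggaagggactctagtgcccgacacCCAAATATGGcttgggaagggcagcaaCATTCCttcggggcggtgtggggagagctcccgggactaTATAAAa
Actc1, chr2:114052876-114053125, minus strand: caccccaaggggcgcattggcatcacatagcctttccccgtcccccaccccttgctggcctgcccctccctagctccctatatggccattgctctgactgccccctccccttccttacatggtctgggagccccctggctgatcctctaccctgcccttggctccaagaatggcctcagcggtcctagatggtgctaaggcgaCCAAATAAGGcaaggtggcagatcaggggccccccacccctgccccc
Fbxl22, chr9:66514594-66514843, minus strand: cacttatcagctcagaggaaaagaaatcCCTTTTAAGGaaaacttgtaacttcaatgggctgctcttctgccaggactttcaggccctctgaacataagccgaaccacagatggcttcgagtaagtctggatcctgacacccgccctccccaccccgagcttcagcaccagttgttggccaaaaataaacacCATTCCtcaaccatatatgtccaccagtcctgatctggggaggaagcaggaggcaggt
Asb2, chr12:103356002-103356251, minus strand: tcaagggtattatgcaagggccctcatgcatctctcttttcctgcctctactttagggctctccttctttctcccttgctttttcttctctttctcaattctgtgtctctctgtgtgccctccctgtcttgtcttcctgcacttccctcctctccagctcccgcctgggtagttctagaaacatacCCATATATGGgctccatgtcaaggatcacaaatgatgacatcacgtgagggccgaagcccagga
Tnnt2, chr1:135836084-135836333, plus strand: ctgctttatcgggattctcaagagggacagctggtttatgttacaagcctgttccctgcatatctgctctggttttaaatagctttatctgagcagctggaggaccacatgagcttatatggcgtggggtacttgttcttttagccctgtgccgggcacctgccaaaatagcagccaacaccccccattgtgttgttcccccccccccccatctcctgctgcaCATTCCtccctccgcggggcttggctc

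A CArG box stood in 4 of the 12 member windows against 1.47% of all windows (482 of 32851). In Acta1 it lay 73 to 64 bases before the start, in Actc1 47 to 38, in Asb2 64 to 55 and in Fbxl22 222 to 213 bases before it. All of these genes had low ratios, but so had Tnnt2 with no exact match in its 2 windows. The 5 windows of Tnnc2, Tnni1, Myh3 and Ttn held 0 exact CArG boxes. Windows of the 2 starts of Tnni1 overlap. MCAT elements, searched as CATTCC and known to bind TEAD factors, were in Acta1, Tnnt2 and Fbxl22, and in 12.6% of all windows. The TATA box, searched as TATAAA, was found in Acta1 and Myh3 (12.4% of all windows) and the MEF2 site in Ttn alone of the members (2.92%). E-boxes, searched as CANNTG, the sites of myogenic and other helix-loop-helix factors, were in 10 of 12 member windows and 66.2% of all. The core of a T-box site, searched as GGTGTGA, was in 0 of 12 and in 3.33% of all windows. A match describes these letters only, and the lack of a match says nothing about binding.

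**Figure D1:**
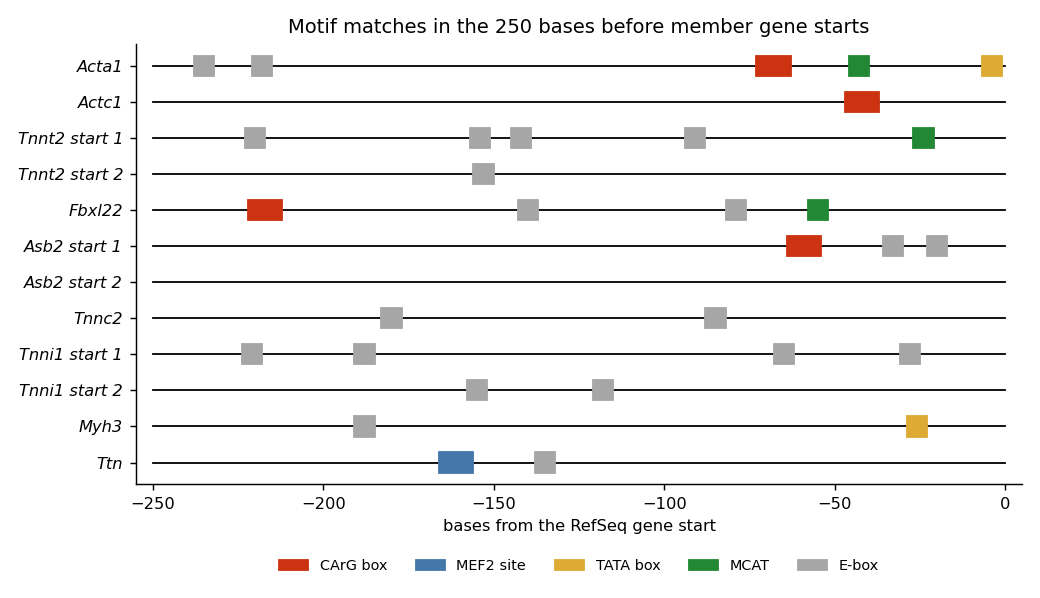
Positions of motif matches in the 250 bases before the RefSeq gene start for 12 windows of 9 members, with bases from the start on the horizontal axis and a coloured block for each match (CArG box, MEF2 site, TATA box, MCAT, E-box). Exact CArG boxes appear in Acta1, Actc1, Fbxl22 and the first start of Asb2, and in 0 of the windows of Tnnc2, Tnni1, Myh3 and Ttn.

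Among all genes tested that had a window, the CArG box was present in 20 of 220 genes that were lower in the labelled knockout at an adjusted p under 0.05 (9.09%). Without the members it was in 16 of 215 (7.44%). Among them were Myl9, Vcl, Ldb3, Myl7 and Myom1, which encode light chains, a focal adhesion protein and parts of the Z-disc and M-band. Others of the 16, such as H2bc3, Itln1 and Lgr4, are not contractile genes. Of 13 smooth muscle contractile genes with a window, 3 had an exact CArG box (23.1%): Myl9, Vcl and Myl6, which was not called. Elements with a mismatch or outside the window were not counted, so the other genes may still have a CArG element. The CArG box was in 5 of 251 genes that were higher (1.99%) and in 1.40% of those not called. These shares are a description.

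Values in each RNA are given as log2 intensities after normalization, and the brightness of one probe cannot be set against another's. Acta1 encodes skeletal alpha-actin. Its intensity was 10.89 in the control of females and 11.56 in that of males, and 9.32 and 9.002 in the labelled knockout RNAs. Both knockout values lay below both controls. The log2 ratio was -1.57 for females and -2.55 for males, with a mean of -2.06 ± 0.69 (SD, n = 2 pairs), or 4.18-fold lower.

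Actc1 encodes cardiac alpha-actin, the main actin of the embryonic heart. It was at 15.25 and 15.42 in the controls and at 14.29 and 13.86 in the labelled knockout, again without overlap. The ratios were -0.96 and -1.56, with a mean of -1.26 ± 0.43 (SD, n = 2 pairs), or 2.40-fold lower. It was the least reduced of the 6 low members.

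Tnnt2, cardiac troponin T, was at 10.13 and 10.68 in the controls. In the labelled knockout RNAs it was at 8.22 and 8.32. The groups did not overlap. Ratios of -1.92 and -2.36 gave a mean of -2.14 ± 0.31 (SD, n = 2 pairs), or 4.40-fold lower. Actins and troponins share coding sequence with their paralogues, and how far these probes tell them apart was not tested, since probe sequences were not used here.

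Fbxl22, Asb2 and Sh3bgr are not filament proteins. Fbxl22 encodes an F-box protein found at the cardiac Z-disc, a subunit of a ubiquitin ligase. On its first probe the controls were at 11.05 and 11.25 and the labelled knockout RNAs at 8.09 and 8.18. The ratios were -2.96 and -3.08, with a mean of -3.02 ± 0.083 (SD, n = 2 pairs), or 8.10-fold lower, and ranked 6 from the lowest of 20629 genes. On a second probe with the same accession the controls were at 8.79 and 8.88 and the labelled knockout at 8.15 and 8.21. That probe gave -0.64 and -0.67, a mean of -0.65 ± 0.022 (SD, n = 2 pairs), or 1.57-fold lower. Both probes were well above background in all 4 RNAs and had the same direction, but the size of the difference depends on the probe.

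Asb2, the substrate adaptor of a cullin ubiquitin ligase that degrades filamins, was at 8.89 and 9.32 in controls and at 7.42 and 7.62 in the labelled knockout. The ratios were -1.47 and -1.70, with a mean of -1.58 ± 0.16 (SD, n = 2 pairs), or 2.998-fold lower. Sh3bgr encodes a small glutamic acid-rich protein expressed in heart and skeletal muscle. Its first probe was at 9.37 and 9.85 in controls and at 7.76 and 7.84 in the labelled knockout, with ratios of -1.62 and -2.01 and a mean of -1.81 ± 0.28 (SD, n = 2 pairs). A second probe gave -1.59 and -1.92, a mean of -1.76 ± 0.24, so these probes differed by less than the SD over pairs. No RNA of the labelled knockout reached the control values on any of these probes.

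**Figure D2:**
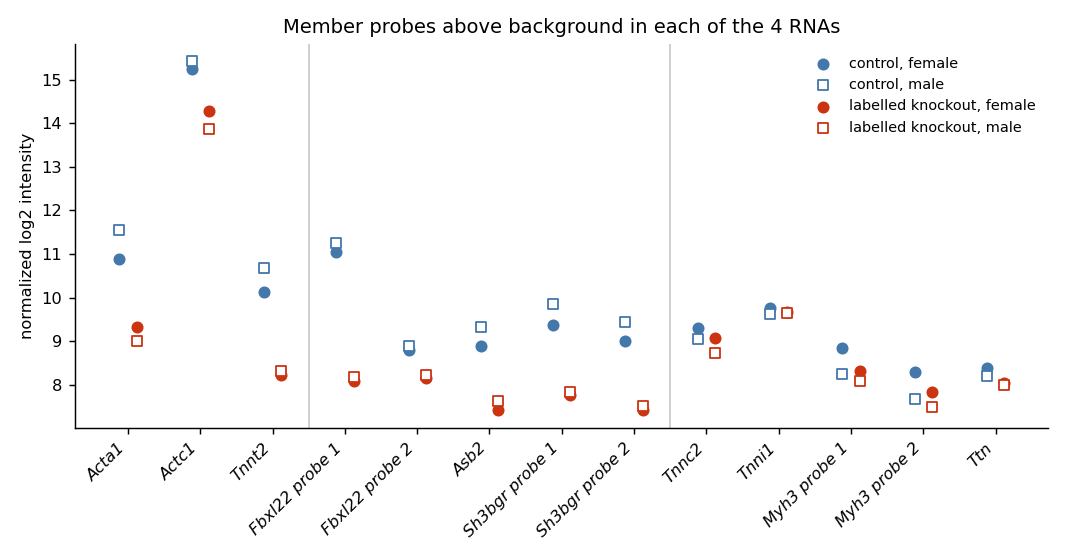
Normalized log2 intensity (vertical axis) of the 13 member probes that were well above background, in the 2 control RNAs (blue) and the 2 labelled knockout RNAs (red), circles for females and squares for males. Knockout points lie below both controls for Acta1, Actc1, Tnnt2, Fbxl22, Asb2, Sh3bgr and Ttn, and overlap with them for Tnnc2, Tnni1 and Myh3.

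The sarcomere genes with little difference came next. Tnnc2, the calcium-binding troponin of fast skeletal fibres, was at 9.30 and 9.04 in controls and at 9.07 and 8.73 in the labelled knockout, so the groups overlapped. Its ratios were -0.22 and -0.31, with a mean of -0.27 ± 0.064 (SD, n = 2 pairs). Tnni1, the inhibitory troponin of slow skeletal fibres and of the embryonic heart, was at 9.77 and 9.63 in controls and at 9.68 and 9.64 in the labelled knockout. Its ratios were -0.089 and 0.012, with a mean of -0.038 ± 0.071, which is within the SD over pairs.

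Myh3, the embryonic myosin heavy chain of skeletal muscle, was at 8.84 in the control of females and 8.25 in that of males, and at 8.32 and 8.08 in the labelled knockout. The controls differed from each other by more than the female control differed from its knockout partner. The ratios were -0.52 and -0.17, a mean of -0.34 ± 0.24 (SD, n = 2 pairs), and a second probe gave -0.46 and -0.16. Ttn had 4 probes. On the 1 that was well above background it was at 8.39 and 8.21 in controls and at 8.04 and 7.99 in the labelled knockout, with ratios of -0.35 and -0.22 and a mean of -0.29 ± 0.091. The other 3 probes were not well above background in either group and give no direction.

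The role groups can be set side by side. The median ratio of Acta1, Actc1 and Tnnt2 was -2.06, that of Fbxl22, Asb2 and Sh3bgr was -1.81, and that of Tnnc2, Tnni1, Myh3 and Ttn was -0.28, against -0.0021 over all 20629 genes tested. The ranges of the low members and of the 4 sarcomere genes did not overlap. These groups were formed with results in view, so the gap between them has no test. Over all genes tested 3.68% passed the limma test in either direction. Of the 10 members, 5 were lower by 2-fold or more for females and for males alike, as were 0.247% of all genes. Knockout intensities lay below both controls for 7 of 10 genes, against 17.7% of all genes. The ratio was below 0 in both pairs for 9 of 10, against 28.2% of all genes. Since the members were proposed from this contrast, nothing is read from these counts.

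**Figure D3:**
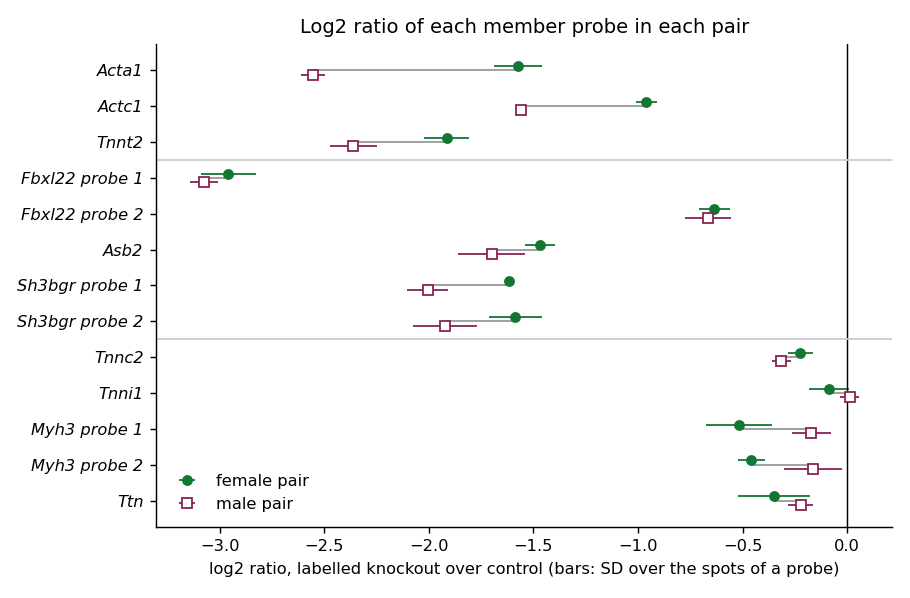
Log2 ratio of labelled knockout over control (horizontal axis) for the 13 member probes above background, with circles for the female pair, squares for the male pair and bars for the SD over the spots of a probe. The 8 probes of Acta1, Actc1, Tnnt2, Fbxl22, Asb2 and Sh3bgr lie between -3.08 and -0.64, and those of Tnnc2, Tnni1, Myh3 and Ttn between -0.52 and 0.012.

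The pairs differed in size. All 6 low members had a lower ratio in the male pair, by 0.98 for Acta1, 0.60 for Actc1, 0.45 for Tnnt2, 0.39 for Sh3bgr, 0.23 for Asb2 and 0.12 for Fbxl22 on the log2 scale. The male control was brighter than the female control for each of these genes. Of the 4 sarcomere genes, Tnnc2 had the lower ratio in the male pair, and Tnni1, Myh3 and Ttn had it in the female pair. With a single pair of each sex these differences were not tested. Smooth muscle contractile genes had a median ratio of -1.09 for females and -1.25 for males.

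Closest paralogues were compared in the fit over all genes. Of the 5 troponin genes outside the members, 0 passed the limma test at an adjusted p under 0.05 and 2 were lower at an unadjusted p under 0.05. Slow troponin T (Tnnt1) was at -0.29 ± 0.096 (SD, n = 2 pairs; limma adjusted p = 0.106) and fast troponin T (Tnnt3) at 0.098 ± 0.033 (adjusted p = 0.665). A second, dimmer Tnnt1 probe gave -0.33 and -0.39, a mean of -0.36, and was not tested by itself. The count of 0 thus rests on the brightest probe of each gene. Tnnc1, Tnni2 and Tnni3, the slow and cardiac troponin C and the fast and cardiac troponin I, were at -0.20, -0.094 and -0.11. Tnnt2 was the only one of 8 troponin genes measured with a ratio under -1 in both pairs. As a member it was chosen with its ratio in view, so nothing is read from this.

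Among the actins, smooth muscle alpha-actin (Acta2) fell, with -3.04 ± 0.29 (SD, n = 2 pairs; limma adjusted p = 0.000105), and so did smooth muscle gamma-actin (Actg2), with -3.55 ± 0.36 (adjusted p = 0.000102). The actins of all cells, Actb at 0.051 ± 0.21 and Actg1 at -0.0094 ± 0.20, did not pass, and Actg1 turned to 0.050 with median centring. Of the tropomyosins, Tpm2 fell, at -0.81 ± 0.097, and Tpm1, Tpm3 and Tpm4 did not pass. Of 29 measured relatives of Asb2, Fbxl22 and Sh3bgr, 0 passed in limma (4 lower and 3 higher at an unadjusted p under 0.05). The largest mean ratios among them were -0.28 for Sh3bgrl2 and -0.27 for Fbxl7. Asb8 had larger values of opposite sign in the pairs, 0.94 for females and -0.80 for males (SD 1.23). That probe had 1 spot above background in each channel, and a second Asb8 probe with 4 gave -0.051 and -0.0053.

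Other genes of the striated sarcomere and of its calcium and energy supply were counted over 92 genes, of which 62 were tested and 30 failed the filter on dim probes, which asks for the same group to be above background on both arrays. Of these 62, 9 fell, 0 rose and 53 did not pass. Over all genes tested, 1.81% fell and 1.87% rose. At an unadjusted p under 0.05 the counts were 14 lower and 6 higher. The median ratio of the 62 genes was -0.039, so most of the list lay near 0 and a few genes were low.

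Of the Z-disc, M-band and titin-associated genes, 5 of 32 tested fell. Synpo2, an actin-bundling protein of Z-discs that smooth muscle also expresses and that was left out of the 62, was at -1.48 ± 0.25 (SD, n = 2 pairs; limma adjusted p = 0.000862). Tmod1, which caps the pointed ends of thin filaments, was at 9.45 and 9.44 in controls and at 8.30 and 8.33 in the labelled knockout, a ratio of -1.14 ± 0.033 (adjusted p = 0.000558). Ldb3, a PDZ-LIM protein of the Z-disc, was at -0.69 ± 0.011 (adjusted p = 0.00364), the related Pdlim3 at -0.62 ± 0.16 (adjusted p = 0.0110) and myomesin Myom1, named after its value was seen, at -0.55 ± 0.20 (adjusted p = 0.0241). Desmin (Des) was at -0.079 and did not pass.

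Of the muscle myosins outside the members, 2 of 10 tested fell. Both are light chains of embryonic and atrial muscle: Myl4 at -0.74 ± 0.20 (SD, n = 2 pairs; limma adjusted p = 0.00815) and Myl7 at -0.42 ± 0.078 (adjusted p = 0.0286). The adult fast heavy chains Myh1, Myh2 and Myh4 were not well above background. Of the excitation, calcium and energy genes, 3 of 17 tested fell: the calcium release channel Ryr2 at -0.66 ± 0.35 (adjusted p = 0.0373), the small heat shock protein Hspb7 at -0.51 ± 0.054 (adjusted p = 0.0125) and sarcolipin (Sln), an inhibitor of the calcium pump, at -0.35 ± 0.057 (adjusted p = 0.0460). The Ryr2 probe was well above background in the labelled knockout on 1 of the 2 arrays, with 1 of 4 spots on the other, so its ratio is uncertain. With probes required to pass in both channels Ryr2 was not tested and 8 genes fell in place of 9. Ryr1, the channel of skeletal muscle, was at 0.074 and did not pass. With median centring or with the deposited value table, 3 of the 62 genes fell in place of 9. Tmod1 and Ldb3 fell under both, joined by Myl4 with median centring and by Myl7 with the deposited values.

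**Figure D4:**
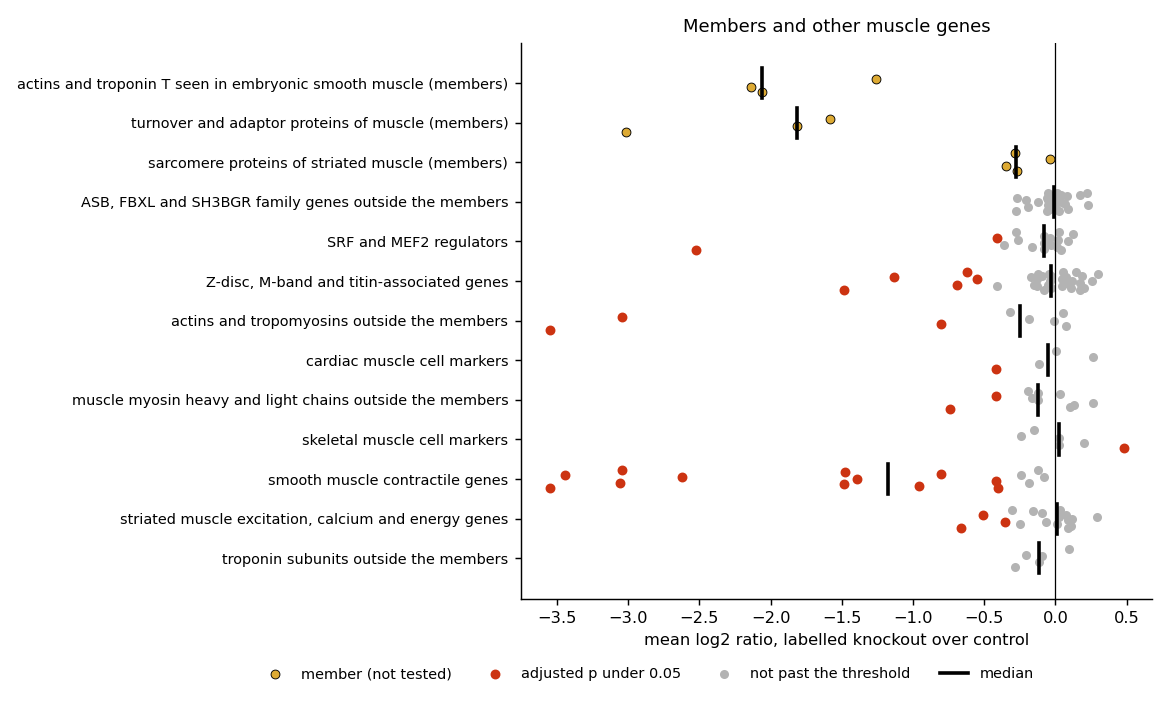
Mean log2 ratio of labelled knockout over control (horizontal axis) for the members by role (yellow, not tested) and for other lists of muscle genes, 1 point per gene, red where the limma adjusted p was under 0.05 and grey where it was not, with a black bar at the list median. Smooth muscle contractile genes have a median of -1.17, while medians of the other lists outside the members lie between -0.25 and 0.024.

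Genes that define other muscle cells were measured in the same way. Of 14 skeletal muscle cell markers, 6 were well above background: Myod1, Myog, Mymk, Mymx, Cdh15 and Rapsn. The other 8 failed the filter. Myf5 and Pax3 had 0 spots above background in any RNA. Chrng, the fetal acetylcholine receptor subunit, had 3 of 4 spots above it in the control of females and the labelled knockout of males, which carried the same dye, and 0 in the other RNAs. Myf6 was above it on 4 of 4 spots in those RNAs, on 2 in the labelled knockout of females and on 0 in the control of males. Of the 6 tested, 1 rose and 0 fell (2 higher and 1 lower at an unadjusted p under 0.05 in limma). The riser was Mymx, a fusion protein of myoblasts, at 0.48 ± 0.0048 (SD, n = 2 pairs; limma adjusted p = 0.0139). It lost its call with the deposited values (adjusted p = 0.0553), with median centring (0.107) and on separate channels (0.0838), as well as at an adjusted p under 0.01. Myog was at -0.24 ± 0.21 and Myod1 at -0.15 ± 0.15. The log2 of the summed intensity of the 6 markers was 14.53 and 14.36 in controls and 14.62 and 14.33 in the labelled knockout. Without Rapsn, a synapse protein, it was 10.43 and 10.62 against 10.65 and 10.68. Such sums follow their brightest probes. The part of skeletal muscle cells in the small differences of Tnnc2, Myh3 and Ttn was not tested.

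Of 9 cardiac markers, 4 passed the filter, and the defining Nkx2-5, Nppa and Tbx5 failed it. In the control of males Gata4 had 0 of 4 spots above background and Myh6 had 1 of 4, so both passed through the labelled knockout alone. Nppa had 4 of 4 spots above it in the labelled knockout of males and 1 in each other RNA. Tbx5 had 0 spots above background, while Nkx2-5 had 4 of 4 in the control of females and 3 of 4 in the labelled knockout of males, again the same dye, and 1 and 0 in the other RNAs. Myl7 fell, as given above, and Myh6, Tnni3 and Gata4 did not pass. The log2 of the summed intensity of the 4 was 10.46 and 10.44 in controls and 10.33 and 10.37 in the labelled knockout. Over all genes tested 1.81% fell and 1.87% rose. Smooth muscle contractile genes, listed with earlier results of these data known, were mostly low: 12 of 16 tested fell and 0 rose. Of these 16 genes, 14 were lower and 0 higher at an unadjusted p under 0.05 in limma. Beside Actg2 and Acta2 they included the smooth muscle myosin heavy chain Myh11 at -3.44 ± 0.15 (limma adjusted p = 3.62e-05) and calponin (Cnn1) at -3.05 ± 0.27 (limma adjusted p = 0.000102). The log2 of their summed intensity was 19.41 and 19.55 in controls and 18.67 and 18.62 in the labelled knockout.

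Regulators of SRF and MEF2 target genes were mostly near 0. Of 17 tested, 2 fell: Myocd at -2.53 ± 0.11 (SD, n = 2 pairs; limma adjusted p = 8.33e-05) and Hopx, a homeodomain protein without DNA binding, at -0.41 ± 0.064 (adjusted p = 0.0292). Hopx lost its call with the deposited values (adjusted p = 0.125), with median centring (0.228), with the processed signals (0.0912) and at an adjusted p under 0.01, which leaves 1 of 17. The count was instead 3 without background subtraction, without the filter on dim probes and with an intensity trend in eBayes. Of the group, 0 rose, and at an unadjusted p under 0.05 the counts were 5 lower and 0 higher. Srf was at -0.36 ± 0.094 (limma adjusted p = 0.0504), close to the threshold, and a second Srf probe gave -0.068 and -0.29, a mean of -0.18. The myocardin-related Mrtfa and Mrtfb were at -0.029 and -0.037, and Mef2c, a factor of cardiac and skeletal muscle, was at 0.015.

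The genes whose ratios in the 2 pairs lay nearest to the mean of Acta1, Actc1 and Tnnt2 (-1.48 for females and -2.16 for males) were sought among genes with a RefSeq symbol outside the members. By Euclidean distance over the pairs they were the carboxypeptidase-like Cpxm2, at a distance of 0.44, Synpo2 at 0.53, the myosin light chain Myl9 at 0.60, Nrip3 at 0.63 and the cation channel Trpv2 at 0.68. This ordering rests on 2 values a gene.

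The way the spots were treated changed the size of the low values more than their direction. With the processed signals the mean ratio of Asb2 was -2.15, that of Sh3bgr -2.29 on its first and -2.41 on its second probe, and that of Tnnt2 -2.48. Fbxl22 was at -3.43 and -0.85 on its 2 probes. The difference was small for Acta1, at -2.23, and for Actc1, at -1.26. The normexp offset of 50 shrinks the ratios of dim probes by construction.

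**Figure D5:**
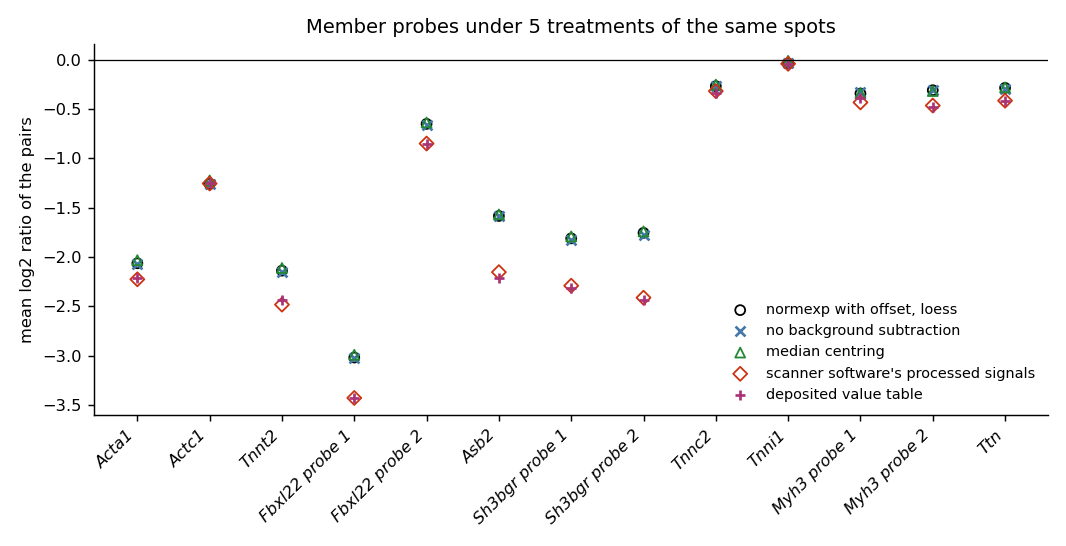
Mean log2 ratio of the pairs (vertical axis) for the 13 member probes above background under 5 treatments of the same spots, each with its own marker. Asb2 is at -1.58 with the normexp offset, -2.15 with the processed signals and -2.22 with the deposited values, and all 13 probes stay below 0 under each treatment.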

How the data were processed

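Total RNA of ureters was hybridised to 2 two-colour Agilent arrays and scanned spots were quantified with Feature Extraction version 10.7.3.1, according to the submitters' processing notes. Per the file headers, the deposited files give intensity per spot with its local background, and also processed intensity signals already background-subtracted and dye-normalized by the software. A further deposited value table gives 1 score per probe and array, a signed fold. How it was made was not stated in the sources used, and its scaling and centring stay unknown. Over bright probes it correlated with the ratios computed here at 0.961 and 0.966, and its medians were 1 and 1.

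Mean intensities were corrected with normexp (offset 50) and loess-normalized within arrays. Non-uniform spots were dropped, the remaining spots averaged by probe, and ratios turned to labelled knockout over control. A probe was kept if over 0.5 of its spots passed the scanner's background test in the knockout channel, or in the control channel, on both arrays (25934 of 39396), and the brightest probe stood for a gene. Because the dyes were exchanged, a probe above background in only 1 dye fails this filter. RefSeq accessions (GRCm38.p6) named 28303 probes. Single-channel intensities were scaled with Aquantile and are open to dye bias. Ratios were fitted in R 4.3.3 with limma 3.58.1 (lmFit, eBayes, Benjamini-Hochberg adjustment across 20629 genes). With 1 residual and 5.24 prior degrees of freedom, p-values measure only the spread between these samples, which may be technical, and lean on other genes. On simulated spots for this comparison (20629 genes), 79.1% of genes changed 1.5-fold, 98.5% changed 2-fold and 100% changed 4-fold were called, and 9 of 20429 unchanged genes were. The simulated spreads were drawn from the variance prior of the same fit, independently for each gene and without a dye bias of single genes. These rates may therefore not hold for the real arrays.

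The members, role groups and lists were chosen with earlier results of these data known, and the combined count of 62 genes was put together after the values were seen, without the actins and tropomyosins and without Des and Synpo2. Named genes were the members, Tbx2, Tbx3, the actin and troponin paralogues, up to 4 called genes of each list (or the 2 largest where none was called) and the 5 nearest genes; others are added as examples of their list. Pairing is the array itself: both RNAs of a pair share it. Alternatives were other background corrections, normalizations, filters, probe choices, variance models and thresholds, the deposited values, separate channels and each replicate left out.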

Additional observations from a re-analysis of the deposited data

Results flagged for a closer look

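Some listed genes had opposite signs for females and for males, such as Unc45b at -0.24 and 0.18 and Asb8 at 0.94 and -0.80. Of the members and their actin and troponin paralogues, those named below did. The difference was not tested, since each sex had 1 pair and the dyes were exchanged with sex. Tnni1 was at -0.089 for females and 0.012 for males, a male minus female difference of 0.10. The cytoplasmic actins did the reverse: Actb was at 0.20 and -0.097, a difference of -0.30, and Actg1 at 0.13 and -0.15, a difference of -0.29. For Actg1 this depended on the probe. A further probe gave 0.18 and -0.44, and another gave -0.031 and 0.018, the opposite signs. The remaining Actg1 probes were positive for females and negative for males.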

How the results depend on the processing

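The direction of the 3 role-group medians was kept under all 13 alternatives, and so was that of each member except Tnni1, which ranged from -0.089 to 0.012. The p threshold, the intensity trend in eBayes and the fit on separate channels leave every ratio as it is by construction. Filters and probe choices cannot move the ratio of a member with a single kept probe. Such alternatives add nothing to the count of kept directions. The median of Acta1, Actc1 and Tnnt2 ranged from -2.36 to -1.57, the limits being the values without replicate 1 and without replicate 2. With the processed signals the median of Fbxl22, Asb2 and Sh3bgr was -2.29 and that of Tnnc2, Tnni1, Myh3 and Ttn -0.37; with the deposited value table these were -2.31 and -0.37. Leaving out a replicate gave -0.29 to -0.20 for the latter group. The offset of 50 used here shrinks ratios of dim probes by construction. For Fbxl22 the mean over probes was -1.83 and the probe nearest 0 gave -0.65.

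Counts depended more on the processing. Over all genes, 385 were higher and 374 lower. With the processed signals there were 249 and 214, 142 and 143 with the deposited values, with median centring 114 and 128, and at an adjusted p under 0.01 147 and 168. Without the replicate block, in a fit on separate channels, there were 223 and 225. Of the 62 other striated genes 9 were lower. This became 3 with the deposited value table, 3 with median centring, 3 at an adjusted p under 0.01 and 4 without the replicate block, where Tmod1 and Ldb3 passed in all of these, and 1 was higher with an intensity trend in eBayes. Actg1 turned to 0.050 with median centring, and the median of cardiac markers, -0.056, became 0.0012 without a filter on dim probes. No test was possible with a single array. Dimness limits Ttn most, with 3 of 4 probes not well above background.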

Other observations

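The myoblast fusion gene Mymk, picked out after its values were seen, had opposite signs in the pairs, at 0.26 for females and -0.21 for males, with a limma adjusted p of 0.984.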
